A study of Rattus norvegicus with 35 samples.

Results

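The 36 genes described here drive or carry out cell division: cyclins and their kinases, the proteins that license and copy DNA, the enzymes that supply nucleotides, and the machinery of mitosis. They were taken by gene symbol from a list, and 35 of the 36 had an array probe set of their own, out of 14217 genes represented. The exception was Rrm2, the small subunit of ribonucleotide reductase, whose 2 probe sets are annotated to Rrm2l1 as well and were therefore not used. Each gene was read from its probe set of highest mean score; 10 of the 35 genes have more than 1 probe set, 50 in all.

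Liver RNA of individual Wistar Han rats was measured on Affymetrix whole-genome rat arrays at postnatal day 92, after a triazole fungicide had been given in the feed from gestation day 6 onward. The 32 arrays with values came from 7 controls at 0 ppm, 5 rats at 500 ppm and 4 at 2000 ppm of myclobutanil, 3 at 500 ppm and 4 at 2500 ppm of propiconazole, and 5 at 500 ppm and 4 at 1800 ppm of triadimefon. The design text calls them biological replicates. The comparisons ask which of these genes differ between a fungicide and the controls, between the feed levels of a fungicide, and between the fungicides at the shared level of 500 ppm. No source used here gives sex or litter, and animals of a group that shared a litter would not be independent. The extraction text in the labels names testis, whereas the titles and the labelling text name liver. Transcripts of hepatocyte proteins scored high on every array (albumin, Alb, at 4.76 to 9.01; transthyretin, Ttr, at 4.27 to 7.85; carbamoyl phosphate synthetase, Cps1, at 3.53 to 6.26).

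A dividing cell first builds up cyclin D with Cdk4, which frees E2F factors to switch on genes for DNA synthesis. The Mcm proteins are then loaded on origins and unwind the DNA, with Pcna as the sliding clamp, and later cyclins A and B with Cdk1 carry the cell through mitosis. Transcription of the mitotic genes depends on the DREAM and MYB complexes and on FOXM1, which act at short promoter elements known as CHR and CCAAT. Most hepatocytes of an adult liver are quiescent and re-enter the cycle after injury, loss of tissue or exposure to mitogens, so these transcripts are usually low there.

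The promoters of 4 members are shown because these genes stand for the steps of the cycle that the results turn on: Mcm2 for origin licensing, Cdk1 for the kinase of mitotic entry, Top2a for chromosome structure and Cdca3 for mitotic entry. Each window is the 250 bases before the RefSeq transcription start on rat build GRCr8, written 5′ to 3′ on the strand of the gene. It lies upstream of the first exon. Capitals mark CCAAT boxes, CHR-type elements and E2F-type sites, searched on both strands, so that a CCAAT box on the other strand reads as its reverse complement, ATTGG. The CHR-type letters searched were TTTGAA and the variant forms written as TTCGAA and TTTAAA, which are both palindromic. The E2F-type letters were TTTGGCGC, TTTCCCGC, TTTCGCGC and TTTGCCGC.
Mcm2, chr4:122918095-122918344, minus strand: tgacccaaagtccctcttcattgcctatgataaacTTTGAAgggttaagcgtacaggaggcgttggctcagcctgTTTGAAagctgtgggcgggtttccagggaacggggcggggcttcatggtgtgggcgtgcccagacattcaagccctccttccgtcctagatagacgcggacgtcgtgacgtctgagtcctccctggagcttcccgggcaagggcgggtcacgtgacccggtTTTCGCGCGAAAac
Cdk1, chr20:19265043-19265292, plus strand: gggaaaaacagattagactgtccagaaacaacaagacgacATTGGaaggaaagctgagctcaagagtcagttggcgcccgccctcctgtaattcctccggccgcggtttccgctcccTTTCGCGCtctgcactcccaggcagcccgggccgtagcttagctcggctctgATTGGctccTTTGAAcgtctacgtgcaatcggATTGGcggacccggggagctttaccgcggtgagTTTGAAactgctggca
Top2a, chr10:84473094-84473343, minus strand: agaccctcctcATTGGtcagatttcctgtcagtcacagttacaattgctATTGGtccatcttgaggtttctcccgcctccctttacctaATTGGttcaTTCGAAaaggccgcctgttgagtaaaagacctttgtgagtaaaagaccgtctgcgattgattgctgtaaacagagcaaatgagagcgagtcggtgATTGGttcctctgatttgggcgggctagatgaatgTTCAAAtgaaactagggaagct
Cdca3, chr4:159320953-159321202, plus strand: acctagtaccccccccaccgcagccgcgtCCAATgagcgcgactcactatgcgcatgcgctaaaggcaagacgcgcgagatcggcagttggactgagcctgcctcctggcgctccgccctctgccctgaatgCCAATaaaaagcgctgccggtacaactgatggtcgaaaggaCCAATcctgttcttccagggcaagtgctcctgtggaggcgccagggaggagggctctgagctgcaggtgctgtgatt
The Mcm2 window held 2 CHR-type matches and 2 E2F-type matches, which lie on opposite strands and overlap, and no CCAAT box. The Cdk1 window held 3 CCAAT boxes, all on the other strand, with 2 CHR-type matches and 1 E2F-type match. The Top2a window held 4 CCAAT boxes and 2 CHR-type matches. The Cdca3 window held 3 CCAAT boxes and no CHR-type or E2F-type match of these letters.

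Windows for 27 of the 35 members could be matched; those for Ccna2, Ccnd1, Ccne2, Foxm1, Mcm4, Aurkb, Ube2c and Racgap1 could not. A CCAAT box was present in 19 of the 27 (70.4%), against 34% of all 33469 rat promoter windows of the same length. A CHR-type element was present in 18 (66.7%, against 26.5%), and an E2F-type site in 6 (22.2%, against 1.73%). A GC box (GGGCGG, not capitalised above) was present in 21 (77.8%, against 30.5%). The members' windows were also richer in G and C, with a median of 57.6% against 51.2%, a property that changes how often such letters occur. These matches describe the sequence and do not show that a factor binds there. Members were counted once each, whereas any gene with several windows entered the background once per window.

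The deposited values are scores of unstated scale and log base, so differences are given in score units, levels are not compared between genes, and array medians lie near 0. A measure of RNA integrity moved with the groups: the score of the 3′ minus the 5′ control probe sets, averaged over GAPDH and β-actin (called the 3′–5′ difference, larger where RNA is shorter or less completely copied) averaged 1.3 ± 0.595 in the controls, 1.21 ± 0.849 at 500 ppm myclobutanil, 0.518 ± 0.0479 at 500 ppm triadimefon and 1.49 ± 0.375 at 1800 ppm triadimefon (SD), and 0.609 to 0.694 in the other 3 groups. For GAPDH alone it exceeded 0.9 on 9 arrays, namely 4 controls, 2 of 500 ppm myclobutanil and 3 of 1800 ppm triadimefon. The triadimefon groups did not overlap in the average over both genes, with 0.469 to 0.577 at 500 ppm and 1.16 to 1.86 at 1800 ppm. The SD of all scores on an array separated these groups too, at 0.725 to 0.778 and 0.816 to 0.919 (controls 0.759 to 0.872). So did the array median, at 0.00941 to 0.0254 and 0.0365 to 0.0518. The part of this array-wide spread in the 3′–5′ difference, or in the differences of single genes, was not tested. Animal numbers in the titles lie above 3000 for controls 5 to 7 and for replicates 2 to 4 of 1800 ppm triadimefon, and below it for all others. In these bulk samples, fewer dividing cells and less RNA per cell cannot be told apart.

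**Figure D1:**
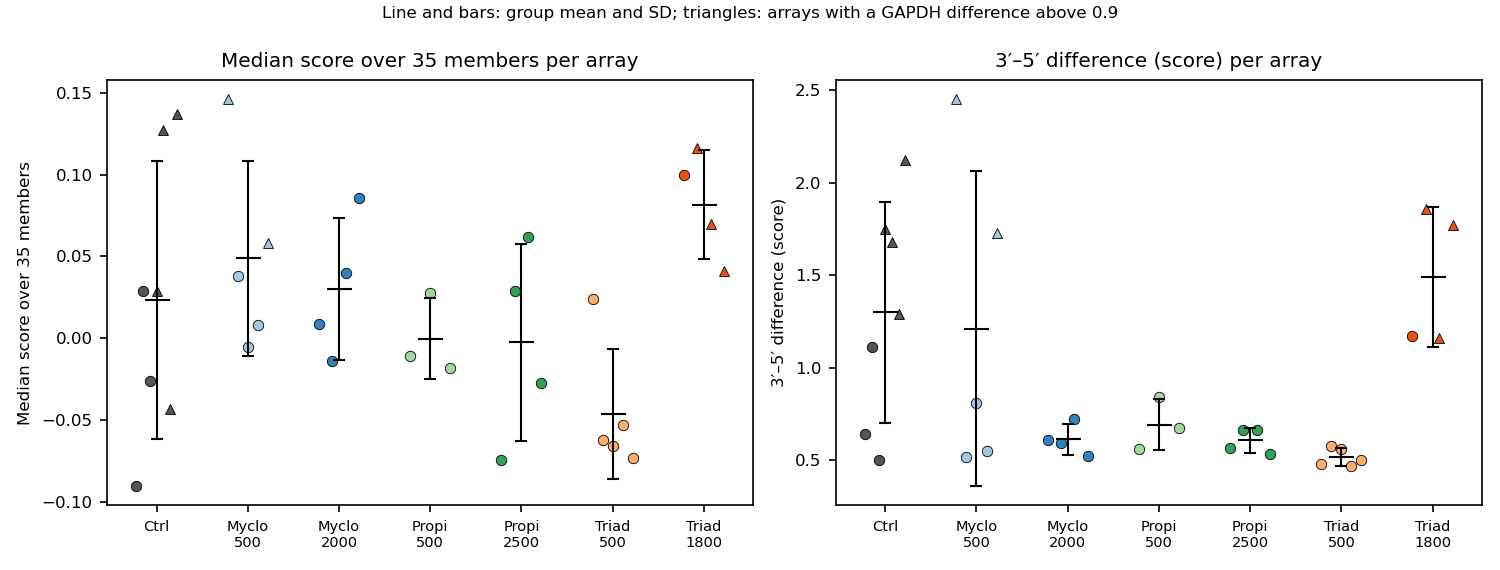
Each point is 1 of the 32 arrays, plotted by group; the left panel gives the median score of the 35 genes on that array and the right panel the 3′–5′ difference, both in score units, with group mean and SD as lines and triangles for the 9 arrays with a GAPDH difference above 0.9. The triadimefon groups separate in both panels, 500 ppm low and 1800 ppm high, with member medians of -0.073 to 0.024 and of 0.041 to 0.116.

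The controls themselves spread widely in these genes. Per array, the median score over the 35 members ran from -0.09 to 0.137 among the controls (mean 0.023, SD 0.085), a range that covers every treated array except replicate 1 of 500 ppm myclobutanil at 0.146. Control 5 held the highest score of all 32 arrays for 8 members and control 7 for 5, whereas control 1 held the lowest for 4 and control 3 for 2. Controls 5 and 7 also had high 3′–5′ differences (1.68 and 2.12), against 0.643 and 0.5 in controls 1 and 3. Replicate 1 of 500 ppm myclobutanil, which had the largest 3′–5′ difference of all (2.45), held the highest score for 7 members. Replicate 5 of 500 ppm triadimefon held the lowest score for 6 members and replicate 2 for 4. Cyclin D1 (Ccnd1), the growth-factor-responsive cyclin of early G1, varied widely among the controls (SD 0.384), with a lowest score of 0.62, a median of 0.839 and a highest of 1.58.

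**Figure D2:**
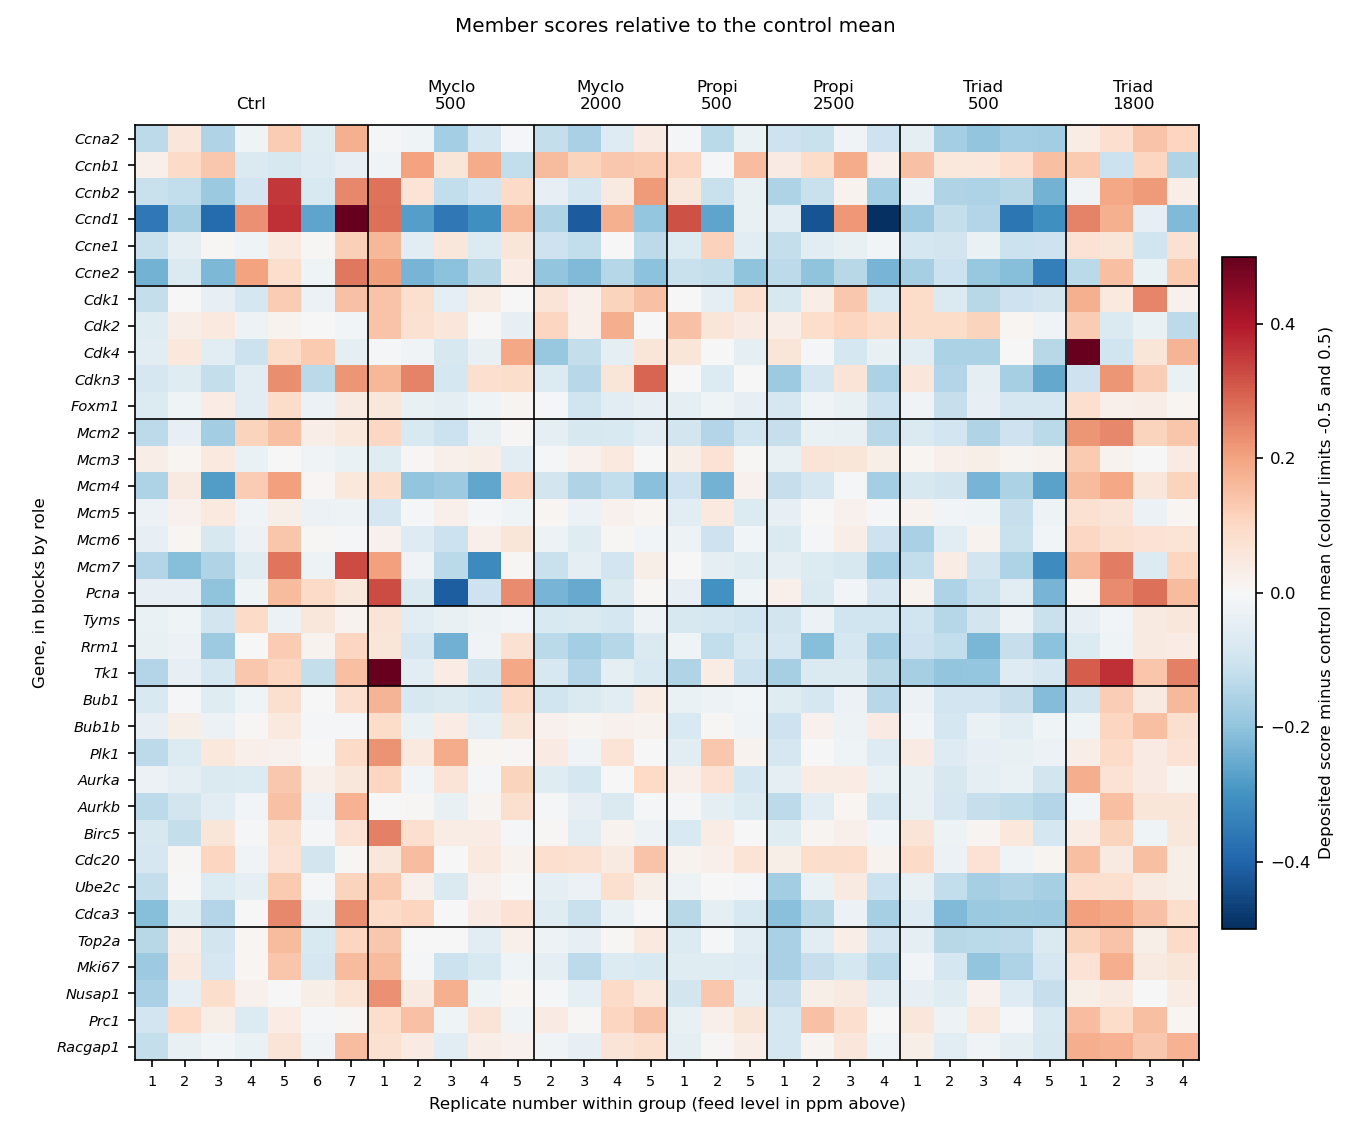
Rows are the 35 genes ordered by role and columns the 32 arrays by group and replicate; colour gives the score minus the control mean of that gene, from blue (lower) to red (higher), with the colours ending at differences of -0.5 and 0.5. The arrays of 1800 ppm triadimefon are mostly red and those of 500 ppm triadimefon mostly blue, while the controls hold both colours.

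At 1800 ppm triadimefon, 1 of the 35 members rose against the controls and 0 fell, in limma's moderated test with Benjamini-Hochberg adjustment over 31042 probe sets and a threshold of 0.05. Over all probe sets 1.17% passed in either direction and 1.04% in the higher one (1.58% of the 14217 genes), so the members' share of 2.86% rests on a single gene. The gene was Racgap1, a GTPase-activating protein of the central spindle that cytokinesis needs. Before adjustment 11 members had p under 0.05, all higher (31.4%, against 9.17% of all probe sets and 12.8% of genes). The median difference over the members was 0.076, with 32 of 35 positive, beside 0.031 over all genes, of which 71.7% were positive. Among animals numbered above 3000, 3 treated rats and 3 controls, the median was 0.014 and 0 members passed in limma.

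Racgap1 scored -0.0715, -0.0781, -0.117 and -0.0802 at 1800 ppm triadimefon. In the controls its lowest score was -0.372, its median -0.269 and its highest -0.0981. So 3 of the 4 treated rats lay above every control, and replicate 3 lay below control 7. The difference was 0.166 ± 0.0371 (SE; limma, adjusted p = 0.0188; 95% interval 0.09 to 0.242). The call was lost without replicate 1, 2 or 4 of the treated group (adjusted p = 0.0542, 0.0521 and 0.0588), with the animal number series as a block (adjusted p = 0.0572) and in a fit of these groups alone (adjusted p = 0.281). Among animals numbered above 3000 alone the difference was 0.094 (adjusted p = 0.854). The main Racgap1 probe set is among the dimmest 40% of all probe sets, so it was not tested once those were left out. A second Racgap1 probe set differed by 0.022 ± 0.0249 (limma, adjusted p = 0.846). The mean of both probe sets differed by 0.094 (limma, adjusted p = 0.0449, adjusted over 14217 genes in place of 31042 probe sets).

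Mcm2, a subunit of the replicative helicase, and Tk1, the thymidine kinase that salvages thymidine in S phase, came next by p and did not pass. Mcm2 scored 0.437, 0.456, 0.325 and 0.355 at 1800 ppm triadimefon, against 0.0413, 0.248 and 0.364 as the lowest, median and highest control. The upper 2 treated rats exceeded every control and the lower 2 did not. The Mcm2 difference was 0.178 ± 0.0466 (SE; limma, adjusted p = 0.0569), and with 1 array left out it passed without control 4 (adjusted p = 0.0312), control 5 (0.0158) or replicate 3 of the treated group (0.0499) and reached an adjusted p of 0.163 without replicate 2. In a fit of these groups alone its adjusted p was 0.51, and among animals numbered above 3000 its difference was 0.085 (limma, adjusted p = 0.889). Tk1 scored 1.11, 1.17, 0.947 and 1.06, against 0.661, 0.766 and 0.956, so 3 of the 4 treated rats exceeded every control. The Tk1 difference was 0.267 ± 0.0795 (SE; limma, adjusted p = 0.11). When the 3′–5′ difference entered as a covariate, 3 members passed, Mcm2 (0.155 ± 0.0329, limma adjusted p = 0.00892), Tk1 (0.221 ± 0.0411, 0.00273) and Racgap1 (0.155 ± 0.0336, 0.0109), beside 1.95% of all probe sets.

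In the fit over all rats, all 7 of the helicase and fork genes, Mcm2 to Mcm7 and Pcna, had positive differences at 1800 ppm triadimefon, from 0.031 to 0.178, and 0 passed. The 9 genes of mitotic kinases, checkpoint and exit likewise had positive differences of 0.046 to 0.158, of which 0 passed. Over all genes 71.7% of differences were positive, and the 3 negative members were Ccnb1, Cdk2 and Rrm1. Of the marker genes most often read as proliferation, Mki67, a chromosome coat protein of cycling cells, differed by 0.09 ± 0.0513 (SE; limma, adjusted p = 0.578) and Top2a, the topoisomerase that untangles chromosomes, by 0.094 ± 0.0453 (adjusted p = 0.454). Cdk1 differed by 0.123 ± 0.055 (SE; limma, adjusted p = 0.396), Cdk4 by 0.194 ± 0.0826 (0.359), Pcna by 0.17 ± 0.0954 (95% interval -0.026 to 0.366) and Ccnd1 by 0.043 ± 0.176 (0.968). Among animals numbered above 3000 the differences of Mki67, Top2a and Cdk1 were 0.025, 0.024 and 0.023, and that of Cdk4 was -0.011.

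The larger contrast lay between the feed levels of triadimefon. At 1800 ppm against 500 ppm, 20 of the 35 members rose and 0 fell (57.1% higher). The background was also large: 24.8% of all probe sets passed in either direction and 22.3% in the higher direction, and among the 14217 genes 28.1% rose. The median member difference was 0.167, with 33 of 35 positive, beside 0.091 over all genes, of which 83.5% were positive. The controls lay between these levels: against them the member median was 0.076 at 1800 ppm and -0.1 at 500 ppm, with 1 and 0 members past the threshold. In this contrast, rose means higher at 1800 than at 500 ppm and not higher than the controls. At 15 of the 35 genes every rat at 1800 ppm scored above every rat at 500 ppm (42.9%, against 21.8% of all probe sets and 26% of genes), and 14 of these 15 were among the 20. The members with negative differences were Ccnb1 (cyclin B1) at -0.104 and Cdk2 at -0.086, neither past the threshold, and a second Ccnb1 probe set differed by 0.129 (limma, adjusted p = 0.111).

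Since the 2 triadimefon groups do not overlap in 3′–5′ difference, feed level and that difference cannot be told apart between them. When the 3′–5′ difference entered as a covariate 0 of the 35 members passed in limma, beside 0.283% of all probe sets, and the smallest adjusted p was 0.0607. At an unadjusted p under 0.05, 16 members passed in that fit, beside 13.5% of all probe sets. All 20 members kept a positive difference in it, of 0.047 to 0.307 in place of 0.106 to 0.408, and the median over the 35 was 0.075. With the animal number series as a block 1 member passed, Mcm2 (2.46% of all probe sets passed), and among animals numbered below 3000, which leaves only replicate 1 at 1800 ppm, 9 had adjusted p under 0.05 (13.3%). Without the 9 arrays of high GAPDH difference, which leaves that same replicate alone at its level, 13 did (23.5%). In both of these fits the 1800 ppm level is 1 rat, assumed to vary like the rats of the other groups, so they give no replicate check of that level. Quantile normalisation left 9 higher and 1 lower, Cdk2 (9.67%), with 33 of 35 differences positive and a median of 0.109.

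Leaving out each of the 9 triadimefon rats in turn left 14 (without replicate 2 at 1800 ppm) to 21 members past the threshold. Of the 20, 11 passed whichever rat was left out: Ccna2, Foxm1, Mcm2, Mcm4, Mcm6, Tk1, Bub1b, Ube2c, Cdca3, Top2a and Racgap1. The other 9 were lost without at least 1 rat. At 1800 ppm, Cdk4 was lost without replicate 1 (adjusted p = 0.0915), Tyms without replicate 4 (0.0686), and Aurkb (0.0598) and Mki67 (0.0539) without replicate 2. Bub1 was lost without replicate 2 or 4 at 1800 ppm or 5 at 500 ppm (up to 0.0867), and Aurka without replicate 1 or 2 at 1800 ppm or 2 or 5 at 500 ppm (up to 0.105). Cdk1 was lost without 5 of the 9 rats (up to 0.0851; replicates 1 and 3 at 1800 ppm and 3, 4 and 5 at 500 ppm). Pcna (up to 0.112) and Rrm1 (up to 0.108) were lost without any of 7, and kept only without replicate 1 of either level.

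**Figure D3:**
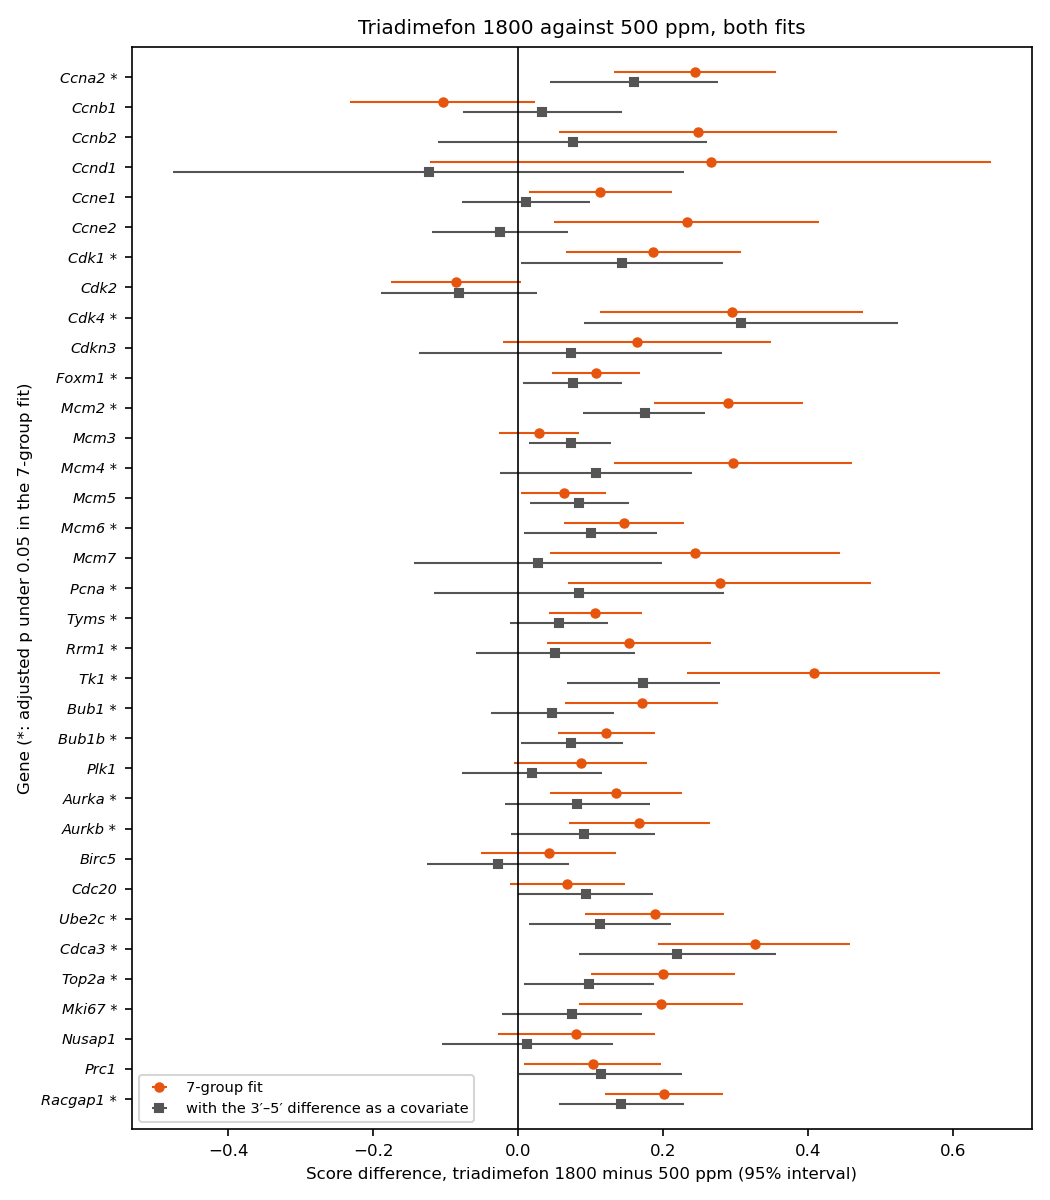
For each gene the difference between 1800 and 500 ppm triadimefon is plotted with its 95% interval, from the 7-group fit (circles) and after the 3′–5′ difference was added as a covariate (squares); asterisks mark the 20 members past the threshold in the 7-group fit. For Tk1 the difference was 0.408 in the first fit and 0.172 in the second, for Cdk4 0.294 and 0.307.

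Among the origin licensing and fork genes, 4 of 7 rose between the triadimefon levels, where 28.1% of all genes rose. This and the other counts by role were not tested against other genes. Mcm2 scored 0.143, 0.121, 0.0656, 0.111 and 0.0787 at 500 ppm and 0.437, 0.456, 0.325 and 0.355 at 1800 ppm. The groups did not overlap: the lowest rat at the high level, replicate 3, lay above the highest at the low level, replicate 1. The difference was 0.289 ± 0.0499 (SE; limma, adjusted p = 0.00123; with the covariate 0.174 ± 0.041, adjusted p = 0.0607). Mcm4 and Mcm6, other subunits of the same ring, rose by 0.296 ± 0.0799 (adjusted p = 0.0132) and 0.145 ± 0.0401 (adjusted p = 0.0145), without overlap of the groups. The sliding clamp Pcna scored 1.41, 1.24, 1.28, 1.34 and 1.16 at 500 ppm and 1.4, 1.63, 1.67 and 1.55 at 1800 ppm. Here replicate 1 at 1800 ppm fell inside the range of the low level. Pcna rose by 0.278 ± 0.102 (SE; limma, adjusted p = 0.0471), close to the threshold. Mcm3, Mcm5 and Mcm7 did not pass, with 0.028, 0.063 and 0.244.

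All 3 measured genes of nucleotide supply rose (28.1% of all genes did). Tk1 scored 0.639, 0.611, 0.613, 0.744 and 0.723 at 500 ppm and 1.11, 1.17, 0.947 and 1.06 at 1800 ppm, with no overlap. Its difference of 0.408 ± 0.0851 (SE; limma, adjusted p = 0.0037) was the largest of the 35. A second Tk1 probe set rose by 0.215 ± 0.0604 (adjusted p = 0.0159) and another differed by 0.083 ± 0.0398 (adjusted p = 0.117). Rrm1, the large subunit of ribonucleotide reductase, rose by 0.153 ± 0.0549 (adjusted p = 0.0437). Tyms, thymidylate synthase, rose by 0.106 ± 0.0316 (adjusted p = 0.02), and replicate 1 at 1800 ppm lay within the low group.

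Of the kinases and regulators, 3 of 5 rose (28.1% of all genes did). Cdk1, the kinase of mitotic entry, scored -0.0605, -0.227, -0.293, -0.256 and -0.245 at 500 ppm and 0.0241, -0.103, 0.0916 and -0.133 at 1800 ppm. The groups overlapped through replicate 1 at 500 ppm, the highest of its group. Cdk1 rose by 0.186 ± 0.0589 (SE; limma, adjusted p = 0.0259). Cdk4, the partner of D-type cyclins, scored 1.29, 1.19, 1.19, 1.35 and 1.21 and 1.98, 1.25, 1.41 and 1.52. Replicate 1 at 1800 ppm was the highest of all 32 arrays for this gene and replicate 2 lay inside the low group. The Cdk4 difference was 0.294 ± 0.0884 (SE; limma, adjusted p = 0.0211) but without replicate 1 at 1800 ppm it was 0.147, and after quantile normalisation it was 0.045 (adjusted p = 0.749). Foxm1, a transcription factor of mitotic genes, rose by 0.107 ± 0.0298 (adjusted p = 0.015) and its second probe set by 0.072 ± 0.0226 (adjusted p = 0.025). Cdkn3, a phosphatase that acts on CDKs, differed by 0.164 and did not pass.

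Of the 6 cyclins 1 rose (28.1% of all genes did). Ccna2, the S and G2 phase cyclin A, scored -0.473, -0.596, -0.622, -0.593 and -0.599 at 500 ppm and -0.388, -0.342, -0.284 and -0.316 at 1800 ppm, with no overlap. The difference was 0.244 ± 0.0545 (SE; limma, adjusted p = 0.00545). Ccnb2 also did not overlap between the levels, but its difference of 0.248 ± 0.0931 had an adjusted p of 0.0515. Ccnd1 scored 0.821, 0.884, 0.855, 0.643 and 0.696 at 500 ppm and 1.25, 1.18, 0.962 and 0.784 at 1800 ppm. Replicate 4 at 1800 ppm lay inside the low group, and the difference of 0.265 ± 0.188 did not pass (adjusted p = 0.285). The E-type cyclins of S phase entry, Ccne1 and Ccne2, differed by 0.113 and 0.232 and did not pass.

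Of the 9 mitotic kinase, checkpoint and exit genes 6 rose (28.1% of all genes did). Cdca3, a trigger of mitotic entry that is itself degraded at exit, scored 0.0255, -0.132, -0.0961, -0.0883 and -0.093 at 500 ppm and 0.295, 0.283, 0.237 and 0.18 at 1800 ppm. Each rat at 1800 ppm exceeded each at 500 ppm, of which replicate 1 was the highest. The difference was 0.326 ± 0.0648 (SE; limma, adjusted p = 0.00294; with the covariate 0.219 ± 0.0662, adjusted p = 0.127). The ubiquitin-conjugating enzyme of mitotic exit, Ube2c, rose by 0.188 ± 0.0466 (adjusted p = 0.00915). The Aurora kinases Aurka and Aurkb rose by 0.134 ± 0.0443 (0.0313) and 0.167 ± 0.0473 (0.0164). The spindle checkpoint kinases Bub1 and Bub1b rose by 0.17 ± 0.0517 (0.0223) and 0.121 ± 0.0325 (0.013). Replicate 1 at 1800 ppm lay inside the low group for both Bub1 and Bub1b. Plk1, Birc5 and Cdc20 differed by 0.086, 0.042 and 0.067 and did not pass, although 2 of the 4 other Cdc20 probe sets did (0.15, adjusted p = 0.0393, and 0.132, adjusted p = 0.0092).

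Of the 5 genes of chromosome structure and cytokinesis 3 rose (28.1% of all genes did). Mki67 scored -0.0475, -0.121, -0.229, -0.187 and -0.118 at 500 ppm and 0.0399, 0.148, 0.0103 and 0.0278 at 1800 ppm, and all of the latter were above 0 where all of the former were below. The difference was 0.197 ± 0.0549 (SE; limma, adjusted p = 0.0152). Top2a scored -0.0168, -0.107, -0.103, -0.0969 and -0.0374 and 0.146, 0.175, 0.0611 and 0.127, again without overlap. It rose by 0.199 ± 0.0484 (SE; limma, adjusted p = 0.0083), and by 0.199 ± 0.062 (adjusted p = 0.0245) in a second probe set. Racgap1 rose by 0.201 ± 0.0397 (adjusted p = 0.00292) from -0.225, -0.309, -0.27, -0.301 and -0.332 at 500 ppm, while its second probe set differed by 0.019 ± 0.0266 (adjusted p = 0.604). Nusap1 and Prc1, which bundle spindle microtubules, differed by 0.08 and 0.103 and did not pass.

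**Figure D4:**
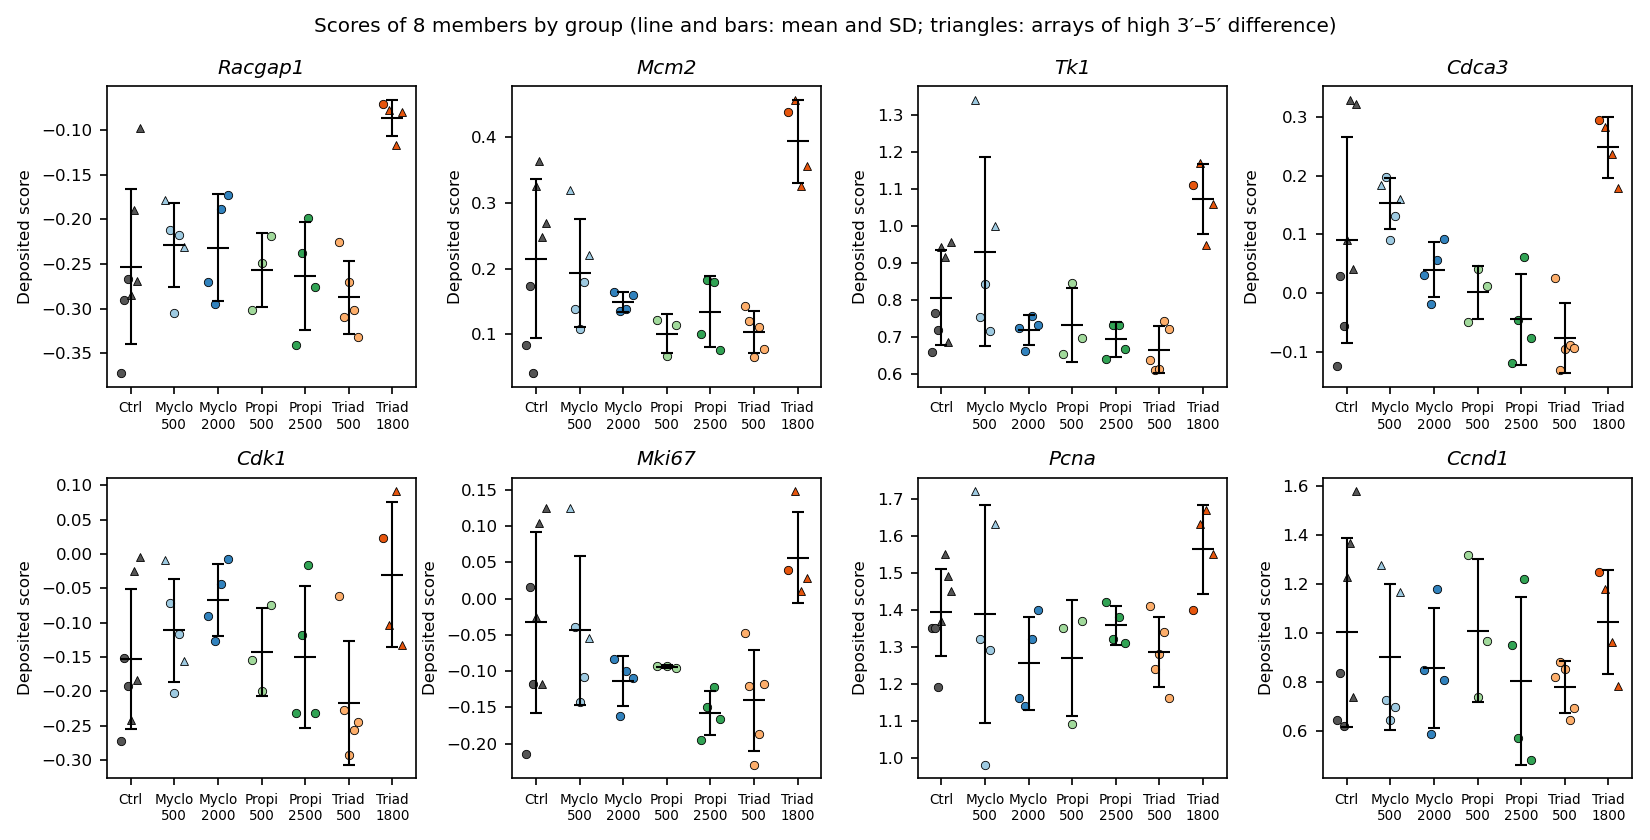
Scores of Racgap1, Mcm2, Tk1, Cdca3, Cdk1, Mki67, Pcna and Ccnd1 are plotted for every rat by group, with lines for the group mean and SD and triangles for arrays of high 3′–5′ difference. Mcm2, Tk1 and Cdca3 separate the triadimefon levels without overlap, while the controls reach into both.

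Against the controls, triadimefon at 500 ppm had 0 of 35 members past the threshold in limma, beside 0.00966% of all probe sets. At an unadjusted p under 0.05 there were 13, all lower (37.1%, against 25.2% of all probe sets lower). The median member difference was -0.1, with 30 of 35 negative, beside -0.058 over all genes. The members of smallest p were Tyms at -0.095 ± 0.0276 (SE; limma, adjusted p = 0.0759), Rrm1 at -0.155 ± 0.048 (0.0777) and Ccna2 at -0.152 ± 0.0476 (0.0786). Tyms scored -0.212, -0.254, -0.205, -0.136 and -0.223, and 4 of these 5 rats lay below the lowest control (-0.202). The count depended on single controls. Without control 1 the count was 11 (12.1% of all probe sets passed) and without control 3 it was 8 (14.4%). Without the 4 controls of high 3′–5′ difference the median moved to -0.025, and with the covariate to -0.012. Mki67 differed by -0.107 ± 0.0479 (SE; limma, adjusted p = 0.142), Top2a by -0.105 (0.114), Mcm2 by -0.111 (0.11), Cdk1 by -0.063 (0.397), Cdk4 by -0.1 (0.372), Pcna by -0.108 (0.405) and Ccnd1 by -0.222 (0.353).

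Propiconazole at 2500 ppm also had 0 of 35 members past the threshold in limma, beside 0.254% of all probe sets. At an unadjusted p under 0.05 there were 6, all lower (17.1%, against 15.4% lower over all probe sets, which is close to the background). The median was -0.061, beside -0.041 over all genes. It turned to 0.007 once the 3′–5′ difference entered the fit and to 0.002 without the arrays of high GAPDH difference, all 4 of which in this comparison are controls. The smallest p belonged to Tyms at -0.082 ± 0.0295 (SE; limma, adjusted p = 0.158), Rrm1 at -0.139 ± 0.0513 (0.163) and Mki67 at -0.125 ± 0.0513 (0.19). Rrm1 passed without control 3. Mki67 scored -0.195, -0.15, -0.122 and -0.166 at this level, within the control range of -0.214 to 0.125. Top2a differed by -0.069 (adjusted p = 0.378), Mcm2 by -0.081 (0.32), Cdk1 by 0.004 (0.974), Cdk4 by -0.021 (0.897), Pcna by -0.035 (0.849) and Ccnd1 by -0.196 (0.521).

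At 500 ppm propiconazole 0 of 35 members passed in limma (0% of all probe sets), and 2 had an unadjusted p under 0.05 (5.71%, against 9.23%). The smallest p belonged to Tyms at -0.09 ± 0.0325 (SE; limma, adjusted p = 0.536), Mcm2 at -0.114 ± 0.0513 (0.541) and Cdk2 at 0.083 ± 0.0451 (0.552). Mki67 differed by -0.061, Top2a by -0.044, Cdk1 by 0.01, Cdk4 by 0.007, Pcna by -0.126 and Ccnd1 by 0.006, with adjusted p of 0.651 to 0.992. Between the propiconazole levels 0 members passed and 0 had an unadjusted p under 0.05 (1.18% of all probe sets did). The median difference of 2500 against 500 ppm was -0.023.

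Myclobutanil at 2000 ppm had 0 of 35 members past the threshold in limma, beside 0.0644% of all probe sets, and 5 at an unadjusted p under 0.05 (14.3%, below the 24.2% of all probe sets). These split by direction: 3 were lower (8.57%, against 20.7% of all probe sets) and 2 higher (5.71%, against 3.53%). The smallest p belonged to Rrm1 at -0.129 ± 0.0513 (SE; limma, adjusted p = 0.143), Cdc20, the activator of the anaphase-promoting complex, at 0.088 ± 0.0361 (0.151) and Ccnb1 at 0.135 ± 0.0581 (0.165). Rrm1 passed without control 3. Mki67 differed by -0.081 (adjusted p = 0.322), Top2a by -0.003 (0.977), Mcm2 by -0.066 (0.374), Cdk1 by 0.086 (0.322), Cdk4 by -0.073 (0.587), Pcna by -0.14 (0.352) and Ccnd1 by -0.145 (0.617). The median of -0.024, beside -0.05 over all genes, became 0.038 without the 4 controls of high 3′–5′ difference.

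At 500 ppm myclobutanil 0 of 35 members passed in limma (0% of all probe sets), and 1 had an unadjusted p under 0.05 (2.86%, against 4.13%). This was the mitotic kinase Plk1 at 0.096 ± 0.0391 (SE; adjusted p = 1), followed by Birc5, the survivin of the chromosomal passenger complex, at 0.079 ± 0.0397 and Nusap1 at 0.088 ± 0.0459. Plk1 scored 0.366, 0.193, 0.329, 0.154 and 0.149, and replicates 1 and 3 exceeded every control (0.239 at the highest). Mki67 differed by -0.011, Top2a by 0.02, Mcm2 by -0.022, Cdk1 by 0.042, Cdk4 by 0.011, Pcna by -0.004 and Ccnd1 by -0.097, each with an adjusted p of 1. Between the myclobutanil levels 0 members passed (0% of all probe sets), and 3 had an unadjusted p under 0.05, all lower at 2000 ppm (Ccne1, Tk1 and Birc5; 8.57%, against 9.58% lower over all probe sets).

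The fungicides share a triazole ring and differ in the rest of the molecule: myclobutanil carries a nitrile, propiconazole a dioxolane ring and triadimefon a ketone. At the shared level of 500 ppm the 3 pairs were compared over 35 members each, and 0 members passed in any pair in limma (0% of all probe sets in each). The intervals bound what could differ. They lay within 0.3 score units of 0 for 31 of 35 members between myclobutanil and propiconazole. The counts were 28 between myclobutanil and triadimefon, and 31 between propiconazole and triadimefon. Most differences called between the triadimefon levels were below 0.3 too, so this bound does not exclude differences of that size. At an unadjusted p under 0.05 there were 16 members higher with myclobutanil than with triadimefon (45.7%, against 16.3% of all probe sets and 18% of genes), 3 higher with myclobutanil than with propiconazole (8.57%, against 3.38%) and 1 higher with propiconazole than with triadimefon (2.86%, against 1.97%). The 3′–5′ difference moved with the first of these pairs, at 1.21 ± 0.849 with myclobutanil, where 2 of 5 arrays had a high GAPDH difference, and 0.518 ± 0.0479 with triadimefon, where 0 of 5 did. The median member difference of that pair was 0.104, beside 0.058 over all genes, and 0.042 once the 3′–5′ difference entered the fit. The smallest p in that pair was that of Cdca3, which scored 0.185, 0.198, 0.0909, 0.131 and 0.161 with myclobutanil and 0.0255, -0.132, -0.0961, -0.0883 and -0.093 with triadimefon. Those groups did not overlap, and the difference was 0.23 ± 0.061 (SE; limma, adjusted p = 0.236; 95% interval 0.105 to 0.355). Mki67 differed by 0.097 in that pair (interval -0.009 to 0.203), by 0.05 between myclobutanil and propiconazole (-0.073 to 0.173) and by 0.047 between propiconazole and triadimefon (-0.076 to 0.169). The high levels differ between the compounds (2000, 2500 and 1800 ppm), so their members' medians against the controls stand side by side as -0.024, -0.061 and 0.076 with no comparison, and all 3 share the same controls.

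Other genes of the same processes were counted from lists. Against the controls at 1800 ppm triadimefon, 2 of 41 other replication genes rose: Rfc2, a subunit of the clamp loader, by 0.352 ± 0.06 (SE; limma, adjusted p = 0.00134) and the licensing factor Cdt1 by 0.143 ± 0.0295 (0.00953). On the list of 47 other mitosis and division genes 1 rose, Cdca7, by 0.111 ± 0.0248 (0.0189). Its place there is that of the list, and a role of Cdca7 in mitosis was not tested. Of 25 cell cycle brakes and p53 targets 1 rose, the stress-induced Gadd45b, by 0.494 ± 0.056 (6.27e-06). Among 18 E2F, MYB and DREAM regulators and 9 other G1 cyclins and kinases 0 passed in limma. Over all 14217 genes 1.58% rose in this comparison, so each of these counts rests on 1 or 2 genes. At 2500 ppm propiconazole Cks1b, a CDK-binding subunit, rose by 0.37 ± 0.0756 (adjusted p = 0.0283), and Rprm, a p53-induced arrest factor, fell by 0.524 ± 0.113 (0.0415), where 0.295% of all genes passed in either direction. Between 1800 and 500 ppm triadimefon, 13 of 41 replication genes, 20 of 47 mitosis genes, 6 of 25 brakes, 6 of 18 E2F, MYB and DREAM regulators and 0 of 9 other G1 genes rose, and 1 mitosis gene, Cks1b, fell by 0.291. Since the lists count genes, these stand beside the 28.1% of all genes that rose: the brakes' share of 24% lay below it, and those of the replication genes (31.7%), the regulators (33.3%) and the mitosis genes (42.6%) above it. The lists were not tested against other genes.

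Markers of the cell types in liver were counted in that contrast too, beside the 28.1% of all genes that rose in it. Lymphocyte, hepatocyte and red cell markers rose at a smaller share than that, and neutrophil markers at nearly that share. Kupffer cell and macrophage markers rose at 9 of 13 genes between the triadimefon levels, and their mean score per array ran from 1.32 to 1.69 at 1800 ppm, from 0.762 to 1.38 at 500 ppm and from 0.969 to 1.51 in the controls. Endothelial markers rose at 5 of 10 (0.92 to 1.16 against 0.665 to 0.843), stellate cell markers at 5 of 14 (0.561 to 0.717 against 0.364 to 0.53) and biliary markers at 3 of 8 (0.266 to 0.313 against 0.138 to 0.185). Lymphocyte markers rose at 3 of 17 (-0.0357 to -0.00672 against -0.134 to -0.0264), neutrophil markers at 2 of 7 (-0.176 to 0.0232 against -0.234 to -0.165) and red cell and precursor markers at 0 of 10 (0.597 to 0.73 against 0.451 to 0.682). Hepatocyte markers rose at 1 of 14, Hnf4a, although their mean score ran from 4.34 to 5.54 against 3.89 to 4.31. Against the controls at 1800 ppm triadimefon, 2 of 14 stellate, 1 of 8 biliary and 1 of 7 neutrophil markers rose, and 0 of the hepatocyte, Kupffer, lymphocyte, red cell and endothelial markers, beside 1.58% of all genes. In mean score every array at 1800 ppm lay above every control for stellate markers (controls 0.448 to 0.535) and biliary markers (controls 0.136 to 0.2), whereas the ranges overlapped for the other 6 lists. No score marks absence on this scale, so no marker can be called at 0. The part of these cell types in the members' differences was not tested.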

How the data were processed

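The authors deposited 1 score per probe set and array; no source used here gives the summary method, normalisation, scale, log base or centring. A log2 scale had been assumed for the design, and the scores were used unchanged. 3 of 35 arrays, marked by the submitters as left out, hold no values. The 57 Affymetrix control probe sets were removed, leaving 31042, of which 20826 have 1 gene symbol, 436 several and 9780 none in the platform annotation. Genes were read from their probe set of highest mean. All 7 groups entered 1 limma 3.58.1 model (R 4.3.3, lmFit, contrasts, eBayes defaults; 25 residual and 1.99 prior degrees of freedom) with 12 two-sided comparisons, adjusted by Benjamini-Hochberg over all probe sets within a comparison, threshold 0.05. Intervals are 95%. The script was tested on simulated data. Alternatives were quantile normalisation, a filter on dim probe sets, the animal number series or replicate number as a block, the 3′–5′ difference as a covariate, other fits, other probe set choices and leaving out arrays. Members described in full are those past the threshold, the 3 of smallest p in each comparison with the controls, and Mki67, Cdk1, Top2a, Ccnd1, Cdk4, Pcna and Mcm2. Genes of other lists are named where they passed. The members and lists were chosen with earlier results of these data known. No 2 arrays of a group were identical (smallest mean absolute difference 0.046). Array precision is limited by the number of arrays. Promoter windows are RefSeq's.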

Additional observations from a re-analysis of the deposited data

Results flagged for a closer look

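Single arrays stood apart from the rest of their group at 9 of 210 gene and group sets of 4 to 7 arrays, by Dixon's 95% limit; chance gives about 5%. Within 500 ppm triadimefon, replicate 1 was high for Ccna2 (-0.473, next -0.593), Cdk1 (-0.0605, next -0.227) and Cdca3 (0.0255, next -0.0883), and replicate 3 was high for Ccne1 (0.078, next 0.0243). Within 1800 ppm triadimefon, replicate 3 was low for Ccne1 (0.0112, next 0.175). Within 2500 ppm propiconazole, replicate 3 was high for Ccna2 (-0.441, next -0.527) and replicate 2 for Tyms (-0.142, next -0.204). Cdk4 was high in replicate 5 of 500 ppm myclobutanil (1.54, next 1.34), and Mcm6 in control 5 (-0.0914, next -0.22).

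The effect of triadimefon against the controls differed between 1800 and 500 ppm at 20 members, tested in limma as the difference of the levels. In score units these were 0.244 for Ccna2, 0.186 for Cdk1, 0.294 for Cdk4, 0.107 for Foxm1, 0.289 for Mcm2, 0.296 for Mcm4, 0.145 for Mcm6, 0.278 for Pcna, 0.106 for Tyms, 0.153 for Rrm1, 0.408 for Tk1, 0.17 for Bub1, 0.121 for Bub1b, 0.134 for Aurka, 0.167 for Aurkb, 0.188 for Ube2c, 0.326 for Cdca3, 0.199 for Top2a, 0.197 for Mki67 and 0.201 for Racgap1. The 3′–5′ difference separates the same groups, and 0 of the 20 passed after it was added as a covariate.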

How the results depend on the processing

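Alternatives changed 25 of 247 counts of members past the threshold, and 15 of 247 medians by more than 0.0583, the pooled SD between arrays of a group; among 2323 values for single members 110 lost a call, 29 gained one and 0 reversed a call. For triadimefon at 1800 against 500 ppm the count of 20 became 10 after quantile normalisation, 10 of the 23 members left without the dimmest 40% of probe sets, 1 with the animal number series as a block, 9 among animals numbered below 3000 (1 rat at 1800 ppm), 0 after the 3′–5′ difference was added as a covariate and 13 when arrays of high 3′–5′ difference were left out (the same 1 rat); its median became 0.089 with the series block and 0.075 with the covariate. For triadimefon at 1800 ppm against the controls the count of 1 became 0 with the series block, 5 below 3000, 0 with only those groups in the fit, 3 with the covariate, 7 without the high arrays (below 3000 and without the high arrays 1 treated rat remains, assumed to vary like the other groups, so these counts are no replicate check), 3 with the mean of all probe sets of a gene and, chosen after seeing the data, 0 above 3000 (median 0.014) and 6 without the 4 controls of high 3′–5′ difference. With the covariate the medians against the controls became 0.035 for 2000 ppm myclobutanil, 0.007 for 2500 ppm propiconazole and -0.012 for 500 ppm triadimefon, and that of myclobutanil minus triadimefon at 500 ppm became 0.042. When high arrays were left out they became 0.038, 0.002 and -0.025, and without the 4 controls the same, with 0.081 for 500 ppm myclobutanil; below 3000 that of 500 ppm triadimefon was -0.034. The causes were not tested. The rat at 1800 ppm triadimefon that remains without the high arrays had a 3′–5′ difference of 1.17, above every rat at 500 ppm. In the fit on the mean of all probe sets of a gene, p was adjusted over 14217 genes in place of 31042 probe sets. Leaving out the dimmest 40% removed Ccna2, Cdk1, Foxm1, Mcm6, Tyms, Bub1, Bub1b, Aurkb, Mki67 and Racgap1, all among the 20. The other members of the 20 all passed between the triadimefon levels, so that count fell because members were removed, not because calls failed. Leaving out single arrays gave counts of 14 to 21 and medians of 0.149 to 0.19 between the triadimefon levels, 0 to 2 (0.059 to 0.099) for 1800 ppm and 0 to 11 (-0.112 to -0.075) for 500 ppm triadimefon against the controls, 0 to 1 (-0.048 to -0.001) for 2000 ppm myclobutanil and 0 to 1 (-0.075 to -0.037) for 2500 ppm propiconazole. Counts for the other 7 comparisons remained 0 there, with medians of -0.001 to 0.038 for 500 ppm myclobutanil, -0.038 to 0 for 500 ppm propiconazole, -0.056 to -0.011 between the myclobutanil and -0.045 to 0.006 between the propiconazole levels, and 0.017 to 0.052, 0.062 to 0.119 and 0.042 to 0.069 for myclobutanil minus propiconazole, myclobutanil minus triadimefon and propiconazole minus triadimefon.

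Replicate numbers do not pair the rats: the deviations of same-numbered rats correlated at -0.666 to 0.596, with a median of -0.0101 over 76 pairs. For rats of different number in different groups the range was -0.735 to 0.71, with a median of 0.00705 over 358 pairs. Both sets thus hold pairs of arrays with strongly correlated deviations, the source of which was not tested. A fit with the replicate block gave 2 members for 1800 ppm triadimefon against the controls and 22 between the triadimefon levels. Counts under other processing that have no share of all probe sets beside them describe the fit and are not results about the members.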
